A study of Homo sapiens with 6 samples.

Results

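The actin regulators described here are 42 genes whose products start, cap, cut or store actin filaments: the Arp2/3 complex and the factors that switch it on, the formins, the barbed-end capping proteins, the cofilins with their partners, and the monomer-binding profilins and thymosins. They were chosen by name and function, with earlier results of these data known. All 42 were found among the 16376 genes of the deposited table. RNA was sequenced from HOS, an established human osteosarcoma cell line labelled WT, in 3 libraries of cells given Agrimol B and 3 libraries of control cells. Agrimol B is a phloroglucinol compound of agrimony plants, and the series gives 24 h as the time of treatment. For control cells the treatment is entered as none, with no word on a solvent, and no dose was found in the sources used here. Whether the 3 libraries of a group stem from separate cultures is likewise not stated, so p-values measure only the spread between libraries, and that spread may be technical.

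Actin filaments grow mainly at their barbed ends from a pool of free monomers. The Arp2/3 complex starts a new filament as a branch on an old one once a factor of the WASP or WAVE family binds it, whereas formins start unbranched filaments and stay on the growing end. Capping proteins stop growth, cofilins cut and take apart old filaments, profilin feeds monomers to growing ends, and beta-thymosins hold monomers in reserve. In cultured mesenchymal cells these proteins drive the protrusion of the cell edge and the turnover of stress fibres.

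Values are FPKM, fragment numbers corrected for transcript length and library depth, so levels can be set side by side between genes. The total FPKM of a library lay between 352990 and 359537. The number of reads behind a value is unknown. Among the lowest values of the table, only 6.15 to 10.8% of genes shared a common ratio to the first control library, so no relative depth was taken from them. Osteoblast-lineage markers such as COL1A1, SPARC and RUNX2 were detected. Of 9 such markers looked for, 6 stood at 1 FPKM or more, BGLAP was near 0, and SP7 and IBSP were absent from the table. The summed level of the 7 markers in the table was 467.9 to 527 FPKM with Agrimol B and 759 to 837 FPKM in control. Its part in the results was not tested. COL1A1, SPARC, COL1A2 and ALPL were lower, SPP1 was 2.18-fold higher and RUNX2 was not called (limma adjusted p = 0.000882 for SPP1 and 0.310 for RUNX2). The leukocyte marker PTPRC and 4 endothelial markers were at or near 0. The 3 leukocyte markers in the table, mostly CD68, summed to 7.88 to 11.0 FPKM with Agrimol B and 5.35 to 5.83 FPKM in control. CD68 was 2.13-fold higher, while CD14 was lower, at a mean of 0.588 FPKM with Agrimol B and 1.44 FPKM in control (limma adjusted p = 0.00109 and 0.00964). The mean of CD14 over all libraries reached 1 FPKM only through control. The 4 epithelial markers summed to 13.4 to 18.5 FPKM with Agrimol B and 15.1 to 16.2 FPKM in control. Most of this was EPCAM, at 12.8 to 14.7 FPKM with Agrimol B and 13.0 to 14.3 FPKM in control. CDH3 was 2.59-fold lower, at a mean of 0.614 FPKM with Agrimol B and 1.59 FPKM in control (limma adjusted p = 0.000349). Its mean over all libraries reached 1 FPKM only through control. CDH1 was near 0. KRT19 stood at 0, 3.17 and 2.68 FPKM with Agrimol B, against 0 to 0.209 FPKM in control, and was not called. In RNA of whole cultures, fewer cells that express a gene and less RNA per cell cannot be told apart.

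Both thymosins, the cofilin partners WDR1 and CAP1, gelsolin and the formins FHOD1 and INF2 fell with Agrimol B, while the WAVE subunit WASF2 and the Arp2/3 activator cortactin rose. In the limma test of log2(FPKM + 1) over the 12143 genes whose mean reached 1 FPKM, a gene was called at an adjusted p under 0.05. Of the 41 actin regulators that passed this limit, 15 were lower with Agrimol B (36.6%), 5 were higher (12.2%) and 21 were not called. Among all tested genes the background was 21.4% lower and 30.6% higher. The median log2 difference of the 41 genes was -0.15, against 0.07 over all tested genes. All 3 Agrimol B values lay below all 3 control values for 16 of the 41 genes, against 26.0% of all tested genes, and above them for 6, against 36.2% of all tested genes. The differences were moderate, from -0.72 to 0.43 on the log2 scale. DIAPH2, a formin at 0.377 ± 0.00855 FPKM with Agrimol B and 0.323 ± 0.121 FPKM in control (SD, n = 3 each, as for every SD here), was too low to be tested. Since the use of strand in counting is not stated, values of genes that overlap others are uncertain to that extent: of those called, only ACTR2, CFL2 and TMSB4X overlap no annotated gene. ARPC1B, ACTR3, ARPC3, FMNL2, PFN2, EPS8 and WDR1 overlap other annotated genes on their own strand, and the remaining called genes on the opposite one, such as FHOD1 with SLC9A5, CAP1 with PPT1, GSN with RAB14 and TMSB10 with TRABD2A.

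**Figure D1:**
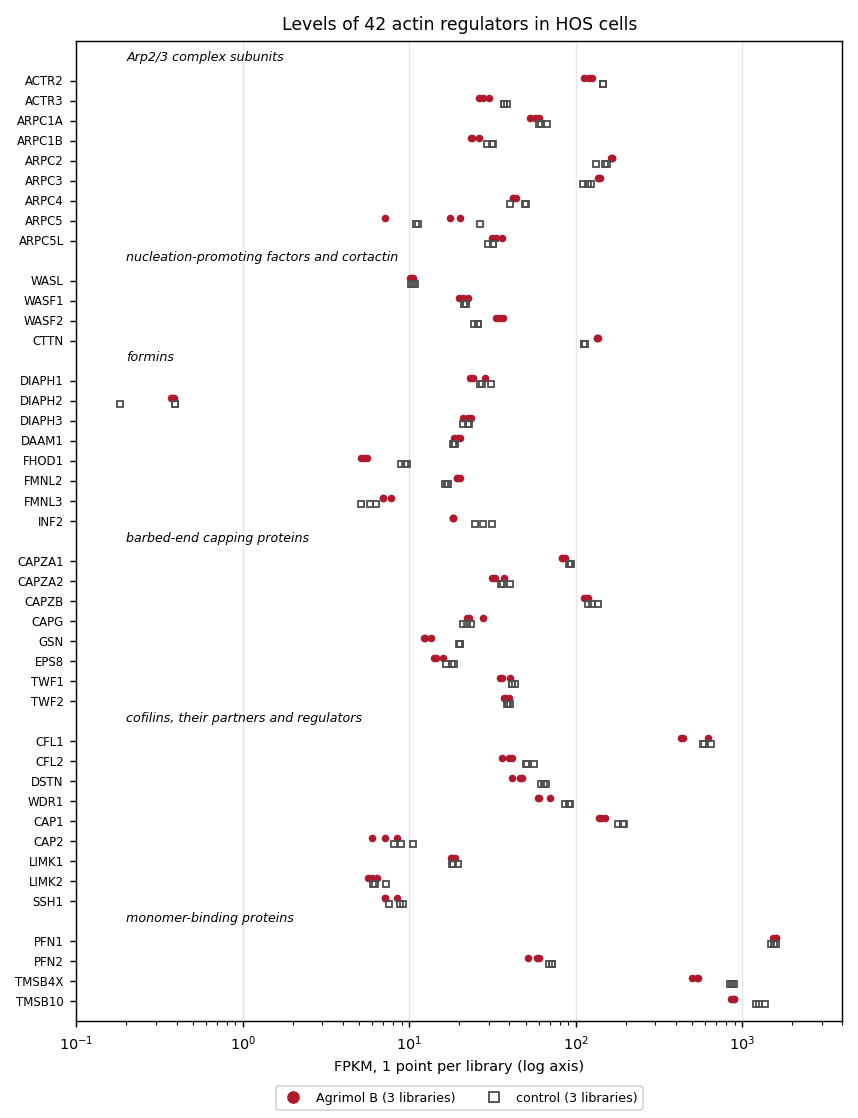
FPKM (log axis) of the 42 actin regulators in each library, with Agrimol B as filled circles and control as open squares, grouped by role. PFN1, the thymosins and CFL1 stand far above the others, DIAPH2 lies below 1 FPKM, and the points of ARPC5 are spread widely in both groups.

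**Figure D2:**
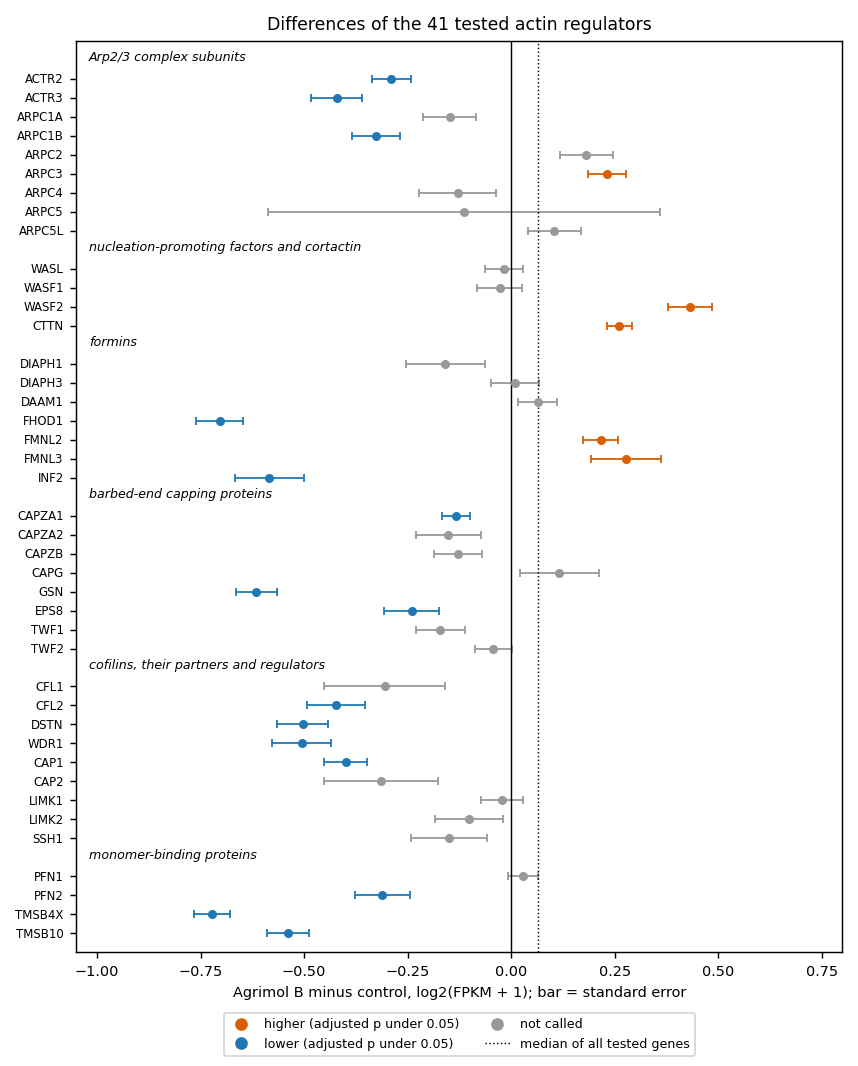
Log2 difference (Agrimol B minus control) of the 41 tested actin regulators with its standard error, coloured by the call, with a dotted line at 0.07, the median of all tested genes. On this log2(FPKM + 1) scale TMSB4X (-0.72) and FHOD1 (-0.70) lie lowest and WASF2 (0.43) highest. With a pseudocount of 0.1, FHOD1 lies below TMSB4X.

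The monomer-binding group held the genes with the highest levels, and 3 of its 4 genes fell. TMSB4X encodes thymosin beta-4, which binds a single actin monomer and keeps it from joining a filament (chromosome X, 12975108 to 12977227, plus strand, GRCh38). It stood at 543, 500.2 and 538 FPKM in the Agrimol B libraries, against 846, 895 and 869.7 FPKM in the control libraries. The groups were far apart, and the fall was 1.65-fold (log2 difference -0.72, SE 0.044, limma adjusted p = 8.45e-05). TMSB10, thymosin beta-10 (chromosome 2, 84905625 to 84906675, plus strand), stood at 859.5, 899 and 891 FPKM with Agrimol B, against 1214, 1266 and 1373 FPKM in control. It fell 1.45-fold (log2 difference -0.54, SE 0.051, limma adjusted p = 0.000382), again with no overlap. With quantile normalization the log2 difference was -0.33, still called (limma adjusted p = 0.00107).

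The coding sequences of both thymosins are shown because these are the most abundant members that fell and are close relatives. Each has 135 bases with its stop codon, and 98 of them (72.6%) are the same in both genes at the same position. The 37 differing bases are in capitals (GENCODE release 29, 5′ to 3′).
TMSB4X: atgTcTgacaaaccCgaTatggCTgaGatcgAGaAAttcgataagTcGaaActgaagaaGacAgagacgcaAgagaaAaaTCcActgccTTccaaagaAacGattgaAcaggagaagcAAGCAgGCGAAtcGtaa
TMSB10: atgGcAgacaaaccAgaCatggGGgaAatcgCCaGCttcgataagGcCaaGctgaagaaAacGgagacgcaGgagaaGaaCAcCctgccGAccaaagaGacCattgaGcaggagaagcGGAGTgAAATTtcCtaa
The annotation also names 6 pseudogenes of TMSB4X and 2 of TMSB10. How reads that match several copies were counted was not found in the sources used here.

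PFN1, profilin 1, which loads monomers onto growing barbed ends (chromosome 17, 4945652 to 4949061, minus strand), was the most abundant of the 42 genes. It stood at 1533, 1594 and 1595 FPKM with Agrimol B, against 1543, 1597 and 1490.0 FPKM in control. The groups overlapped, and the gene was not called (log2 difference 0.03, SE 0.036, limma adjusted p = 0.538). With median-ratio scaling the sign turned (-0.04), still without a call. PFN1 has 10 named pseudogenes. PFN2, the less abundant profilin, fell 1.24-fold to 57.0 ± 4.63 FPKM, against 70.8 ± 1.87 FPKM in control (limma adjusted p = 0.00915). The ratio of PFN1 to both thymosins summed, a quantity chosen after the values were seen, was 1.09, 1.14 and 1.12 in the Agrimol B libraries, against 0.749, 0.739 and 0.664 in the control libraries. In FPKM, PFN1 thus stood above the summed thymosins in each Agrimol B library and below them in each control library. The handling of reads that match several copies is unknown, so this cannot be read as a ranking of transcript numbers.

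Because both thymosins were lower in every Agrimol B library, the 250 bases before their RefSeq transcription starts are shown, from the RefSeq promoter table (GRCh38.p14, plus strand, 5′ to 3′). The GENCODE starts given above lie before the ends of these windows, so the last bases of each window are inside the GENCODE gene. Capitals mark the GC box, the letters GGGCGG on either strand. TMSB4X has 1 match and TMSB10 has 5, of which a pair overlaps. Such a match stands in 42.6% of all 35116 promoters in that table, and in 42 of the 59 promoters of the 37 actin regulators that matched it, over the same window. The called genes WASF2, CTTN, EPS8, PFN2 and ARPC1B were not matched.
TMSB4X, chrX:12974860-12975109: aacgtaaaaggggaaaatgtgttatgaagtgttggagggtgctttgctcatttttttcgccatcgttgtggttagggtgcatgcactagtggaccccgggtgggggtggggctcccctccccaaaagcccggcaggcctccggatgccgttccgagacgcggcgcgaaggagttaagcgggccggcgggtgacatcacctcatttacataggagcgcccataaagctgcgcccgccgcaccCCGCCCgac
TMSB10, chr2:84905406-84905655: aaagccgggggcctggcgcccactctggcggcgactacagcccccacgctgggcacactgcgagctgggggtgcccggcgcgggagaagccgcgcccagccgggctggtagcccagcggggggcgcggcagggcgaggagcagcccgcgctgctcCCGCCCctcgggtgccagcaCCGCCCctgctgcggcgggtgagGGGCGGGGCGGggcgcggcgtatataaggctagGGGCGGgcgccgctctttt
The CArG box, the motif bound by serum response factor (SRF), was searched on both strands in the whole 300 bases of each promoter, from 250 before to 50 after the start. It was found in 0 of the same 59 promoters, and in 1.29% of all 35116. The motif has CC, then 6 bases that are A or T, then GG. With so low a share among all promoters, 0 of 59 does not set these genes apart. It says only that the motif is not in these windows.

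**Figure D3:**
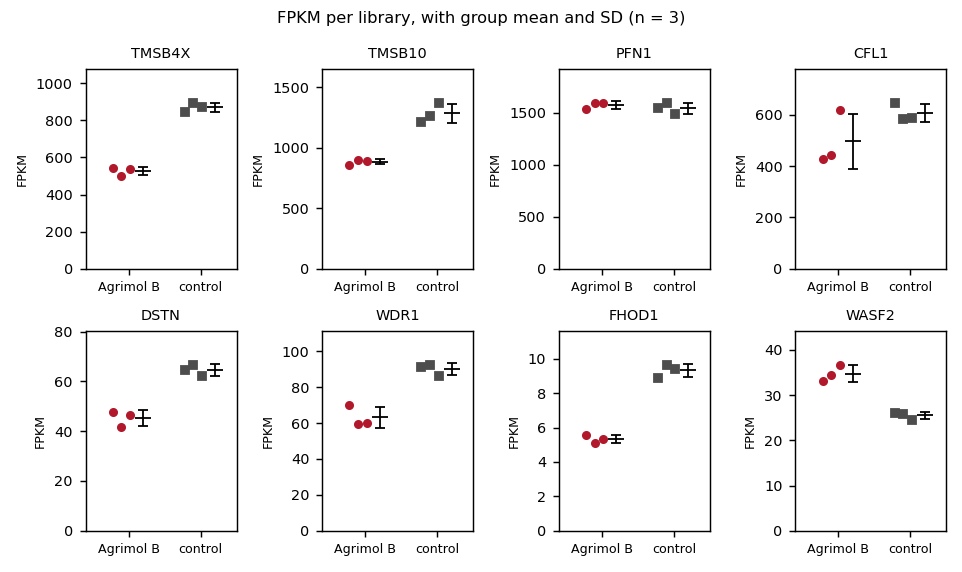
FPKM of 8 actin regulators in the 3 Agrimol B and 3 control libraries on axes that start at 0, with the mean and SD of each group beside the points. The 2 groups are apart for TMSB4X, TMSB10, DSTN, WDR1, FHOD1 and WASF2, they overlap for PFN1, and the third Agrimol B library stands among the control libraries for CFL1.

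Among the cofilins and their partners 4 of 9 genes fell (44.4%, against 21.4% of all tested genes) and 0 rose (against 30.6%). DSTN, destrin, a cofilin relative that severs filaments (chromosome 20, 17569863 to 17609919, plus strand), stood at 47.8, 41.7 and 46.4 FPKM with Agrimol B, against 64.7, 66.7 and 62.2 FPKM in control. Its groups did not overlap, and it fell 1.42-fold (log2 difference -0.50, SE 0.062, limma adjusted p = 0.00111). CFL2, the muscle-type cofilin (chromosome 14, 34706769 to 34714823, minus strand), stood at 41.4, 36.0 and 39.5 FPKM with Agrimol B, against 51.1, 50.3 and 56.2 FPKM in control. It fell 1.35-fold (log2 difference -0.42, SE 0.070, limma adjusted p = 0.00354).

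CFL1, the main non-muscle cofilin (chromosome 11, 65823022 to 65862026, minus strand), was split within the Agrimol B group. It stood at 429, 441 and 619.8 FPKM with Agrimol B, against 647, 583 and 588 FPKM in control. The first and second Agrimol B libraries lay below every control library, and the third lay between control values. The gene was not called (log2 difference -0.31, SE 0.145, limma adjusted p = 0.125). Without the third Agrimol B library it was (log2 difference -0.48, limma adjusted p = 0.00306). Without the first or the second Agrimol B library the log2 difference was -0.21 or -0.23, and with quantile normalization -0.11. None of these was a call (limma adjusted p = 0.305, 0.292 and 0.547). CFL1 overlaps MUS81 and SNX32 on the other strand and has 8 named pseudogenes, and the part of these in its spread was not tested.

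LIM kinases switch cofilins off by phosphorylating the serine next to their N-terminus, and slingshot phosphatases switch them on again. The first 30 coding bases of the 3 cofilin family genes are shown because LIM kinases and a slingshot phosphatase are among the 42 genes. The codon of the serine at position 3, counted with the start methionine as 1, is in capitals (GENCODE release 29, 5′ to 3′).
CFL1: atggccTCCggtgtggctgtctctgatggt
CFL2: atggctTCTggagttacagtgaatgatgaa
DSTN: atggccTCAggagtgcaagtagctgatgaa
Over the whole coding sequence, CFL1 and CFL2 share 351 of 501 bases at the same position (70.1%). These LIM kinases and this slingshot phosphatase were not called. LIMK1 stood at 18.3 ± 0.488 FPKM with Agrimol B and 18.6 ± 0.860 FPKM in control (limma adjusted p = 0.738). LIMK2 stood at 5.99 ± 0.408 FPKM with Agrimol B and 6.51 ± 0.636 FPKM in control, and SSH1, slingshot 1, at 7.58 ± 0.727 FPKM with Agrimol B and 8.51 ± 0.808 FPKM in control (limma adjusted p = 0.337 and 0.217). Outside the 42 genes, the cofilin-pathway kinase gene TESK1 was 1.35-fold higher, at 5.39 ± 0.0663 FPKM, against 3.98 ± 0.292 FPKM in control. The phosphatase gene PDXP was 1.31-fold lower, at 14.6 ± 0.984 FPKM, against 19.2 ± 0.213 FPKM in control (limma adjusted p = 0.00402 and 0.00263). SSH2 and SSH3 were not called, and TESK2 was too low to be tested.

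Of the 3 genes for proteins that act together with cofilin, WDR1 and CAP1 fell and CAP2 was not called. WDR1, also called AIP1, speeds the disassembly of filaments that carry cofilin (chromosome 4, 10074339 to 10116949, minus strand). It stood at 69.9, 59.6 and 60.1 FPKM with Agrimol B, against 91.2, 92.6 and 86.1 FPKM in control. The groups were apart and the fall was 1.42-fold (log2 difference -0.51, SE 0.072, limma adjusted p = 0.00192). CAP1, the cyclase-associated protein that recycles monomers released by cofilin (chromosome 1, 40040233 to 40072649, plus strand), stood at 137, 150.1 and 141 FPKM with Agrimol B, against 179, 194 and 193 FPKM in control. It fell 1.32-fold (log2 difference -0.40, SE 0.051, limma adjusted p = 0.00128). Its relative CAP2 was scarcer, at 7.18 ± 1.25 FPKM with Agrimol B and 9.15 ± 1.23 FPKM in control, and was not called (limma adjusted p = 0.102). CAP2 was called lower with quantile normalization, with the replicate number as a block and without the first Agrimol B library (limma adjusted p = 0.0499, 0.0178 and 0.0485).

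Of 7 formins tested, 2 fell and 2 rose (28.6% each), near the shares of all tested genes (21.4% lower and 30.6% higher), and 3 were not called. FHOD1, a formin of stress fibres (chromosome 16, 67229387 to 67247658, minus strand), stood at 5.57, 5.10 and 5.35 FPKM with Agrimol B, against 8.89, 9.67 and 9.43 FPKM in control. Its fall of 1.75-fold was the largest ratio among the 41 tested genes, and the groups were far apart (log2 difference -0.70, SE 0.057, limma adjusted p = 0.000226). INF2, a formin that both assembles and severs filaments (chromosome 14, 104689606 to 104722535, plus strand), stood at 18.2, 18.3 and 18.3 FPKM with Agrimol B, against 27.7, 31.3 and 24.9 FPKM in control. It fell 1.53-fold (log2 difference -0.58, SE 0.083, limma adjusted p = 0.0019).

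The formins that rose were FMNL2 and FMNL3, which act at protrusions of the cell edge. FMNL2 (chromosome 2, 152335237 to 152649834, plus strand) stood at 20.1, 19.3 and 19.5 FPKM with Agrimol B, against 16.9, 17.0 and 16.4 FPKM in control. It rose 1.17-fold (log2 difference 0.22, SE 0.042, limma adjusted p = 0.00669), or by 0.14 on the log2 scale with quantile normalization, still called (limma adjusted p = 0.0325). FMNL3 stood at 6.91, 7.80 and 6.93 FPKM with Agrimol B, against 5.16, 6.35 and 5.83 FPKM in control, a rise of 1.25-fold (limma adjusted p = 0.0344). The call of FMNL3 was lost with median-ratio scaling and quantile normalization (limma adjusted p = 0.0758 and 0.114) and whenever a library other than the second control library was left out (0.0578 to 0.0983). The other formins were DIAPH1 and DIAPH3, diaphanous formins that were not called (25.2 ± 2.83 and 22.4 ± 1.22 FPKM with Agrimol B, against 28.2 ± 2.34 and 22.2 ± 0.897 FPKM in control), and DAAM1, at 19.5 ± 0.776 FPKM with Agrimol B and 18.6 ± 0.313 FPKM in control (limma adjusted p = 0.209, 0.898 and 0.292).

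Of the 4 genes that activate the Arp2/3 complex or stabilise its branches, 2 rose and 0 fell. Among all tested genes 30.6% rose and 21.4% fell. WASF2, the main WAVE protein of many non-neuronal cells (chromosome 1, 27404226 to 27490158, minus strand), stood at 33.2, 34.4 and 36.8 FPKM with Agrimol B, against 26.1, 25.9 and 24.6 FPKM in control. It rose 1.36-fold (log2 difference 0.43, SE 0.053, limma adjusted p = 0.00106) with no overlap. CTTN, cortactin, which holds branches in place (chromosome 11, 70398404 to 70436584, plus strand), stood at 136, 135 and 135 FPKM with Agrimol B, against 113, 113 and 112 FPKM in control. It rose 1.20-fold, with a small spread in both groups (log2 difference 0.26, SE 0.030, limma adjusted p = 0.000803). WASF1, at 21.2 ± 1.31 FPKM with Agrimol B and 21.6 ± 0.263 FPKM in control, and WASL, which encodes N-WASP, at 10.3 ± 0.213 FPKM with Agrimol B and 10.5 ± 0.273 FPKM in control, were not called (limma adjusted p = 0.7 and 0.763).

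The subunits of the Arp2/3 complex did not move as a block. Of 9 genes for its 7 subunits, 3 fell (33.3%, against 21.4% of all tested genes), 1 rose (11.1%, against 30.6%) and 5 were not called. ACTR3, the actin-related protein Arp3 (chromosome 2, 113889960 to 113962596, plus strand), stood at 27.6, 30.3 and 26.1 FPKM with Agrimol B, against 38.9, 37.2 and 37.2 FPKM in control, a fall of 1.35-fold (log2 difference -0.42, SE 0.062, limma adjusted p = 0.00219). ACTR2, the actin-related protein Arp2 (chromosome 2, 65227753 to 65271253, plus strand), stood at 125, 112 and 119.5 FPKM with Agrimol B, against 145, 147 and 145 FPKM in control, a fall of 1.22-fold (log2 difference -0.29, SE 0.047, limma adjusted p = 0.00314). These 2 proteins form the start of the new filament, and neither gene's groups overlapped.

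ARPC1B, a subunit that has the paralog ARPC1A, fell 1.26-fold to 24.5 ± 1.42 FPKM, against 31.0 ± 1.30 FPKM in control (limma adjusted p = 0.00471). ARPC3, a small subunit (chromosome 12, 110434825 to 110450422, minus strand), stood at 137, 139 and 138 FPKM with Agrimol B, against 118, 123 and 111 FPKM in control. It rose 1.17-fold (log2 difference 0.23, SE 0.046, limma adjusted p = 0.00717). ARPC2, a subunit that contacts the mother filament, stood at 162, 166 and 166 FPKM with Agrimol B, against 132, 155 and 149 FPKM in control. These values did not overlap, yet the gene was not called (limma adjusted p = 0.0548). It was called higher with quantile normalization and without the second control library (limma adjusted p = 0.0153 and 0.0345).

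The remaining subunits were not called. ARPC1A stood at 56.9 ± 3.59 FPKM with Agrimol B and 63.2 ± 3.64 FPKM in control, and was called lower with median-ratio scaling (limma adjusted p = 0.101, against 0.0332 with that scaling). ARPC4 stood at 42.4 ± 1.04 FPKM with Agrimol B and 46.7 ± 5.80 FPKM in control (limma adjusted p = 0.287). The third control library, at 40.0 FPKM, lay below the others, and without it the gene was called lower (limma adjusted p = 0.0122). ARPC4 shares its strand with the read-through gene ARPC4-TTLL3. ARPC5 scattered most: it stood at 20.1, 17.6 and 7.14 FPKM with Agrimol B, against 11.0, 11.3 and 26.4 FPKM in control, so that both groups spanned more than a 2-fold range (SE 0.473, limma adjusted p = 0.857). Its paralog ARPC5L was steadier, at 33.5 ± 2.47 FPKM with Agrimol B and 31.1 ± 1.07 FPKM in control (limma adjusted p = 0.212).

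Of 8 genes that cap barbed ends, 3 fell (37.5%, against 21.4% of all tested genes) and 0 rose (against 30.6%). GSN, gelsolin, which severs filaments and caps the ends it makes (chromosome 9, 121207794 to 121332843, plus strand), stood at 12.5, 12.3 and 13.5 FPKM with Agrimol B, against 20.1, 20.2 and 19.9 FPKM in control. The control values lay close together, all above the Agrimol B values, and the fall was 1.57-fold (log2 difference -0.62, SE 0.050, limma adjusted p = 0.000233). EPS8, which caps filaments and links receptor signals to Rac, fell 1.19-fold to 14.8 ± 0.915 FPKM, against 17.7 ± 1.04 FPKM in control (limma adjusted p = 0.0246). CAPZA1, an alpha subunit of capping protein, fell 1.10-fold to 84.1 ± 1.73 FPKM, against 92.4 ± 1.22 FPKM in control (limma adjusted p = 0.0192). The calls of EPS8 and CAPZA1 were each lost when certain single libraries were left out (limma adjusted p = 0.0705 to 0.0748 for EPS8 and 0.0544 to 0.0607 for CAPZA1). For EPS8 these were the second and the third Agrimol B and the first and second control library, and for CAPZA1 the third Agrimol B and the first and second control library. CAPZA1 was also lost with the replicate number as a block (limma adjusted p = 0.0507).

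The other subunits of capping protein were not called. CAPZA2 stood at 33.8 ± 2.98 FPKM with Agrimol B and 37.6 ± 2.43 FPKM in control, and CAPZB at 115 ± 3.35 FPKM with Agrimol B and 126 ± 8.86 FPKM in control (limma adjusted p = 0.153 and 0.112). CAPZA2 was called lower without the first Agrimol B library and CAPZB with median-ratio scaling (limma adjusted p = 0.0484 and 0.0294). CAPG, a capping relative of gelsolin, stood at 24.3 ± 3.08 FPKM with Agrimol B and 22.3 ± 1.36 FPKM in control (limma adjusted p = 0.348). TWF1, twinfilin 1, which binds monomers and barbed ends, stood at 40.2, 35.2 and 36.1 FPKM with Agrimol B, against 43.0, 41.4 and 41.3 FPKM in control. It missed the threshold without overlap (limma adjusted p = 0.0518) and was called lower with median-ratio scaling, with quantile normalization and without the first Agrimol B library (0.0168, 0.0218 and 0.0119). TWF2 stood at 38.2 ± 1.42 FPKM with Agrimol B and 39.4 ± 0.932 FPKM in control (limma adjusted p = 0.453).

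Summed over each role, the FPKM of the monomer-binding genes was 2994, 3045 and 3085 with Agrimol B, against 3672, 3829 and 3804 in control, 1.24-fold lower with Agrimol B. This fall lies mostly in TMSB4X and TMSB10, and PFN1, the largest part of the sum, was not called. The cofilin group summed to 767, 765 and 946 with Agrimol B, against 1079, 1028 and 1028 in control, and CFL1 makes up most of both its sum and its spread. The sum of the activators was 202, 199.6 and 203 with Agrimol B, against 171, 171 and 169 in control, the only sum of the 6 that was higher without overlap. CTTN makes up most of it. The Arp2/3 subunits together summed to 628, 627 and 611 with Agrimol B, against 620.3, 653 and 630.3 in control, and these overlapped. With median-ratio scaling the Arp2/3 sums no longer did (log2 ratio -0.10 in place of -0.03, exact permutation p = 0.1). Formins summed to 118 ± 2.14 with Agrimol B and 129 ± 1.76 in control, and capping genes to 361 ± 5.29 with Agrimol B and 398 ± 10.6 in control. In an exact permutation test over libraries (two-sided), the 5 sums other than that of Arp2/3 reached p = 0.1, the smallest that 3 against 3 libraries allow (0.12 adjusted over 6 sums), and that of Arp2/3 gave p = 0.4. All 42 genes together made up 1.44, 1.44 and 1.50% of the total FPKM with Agrimol B, against 1.71, 1.73 and 1.71% in control. Most of this difference lies in TMSB4X (mean 527 FPKM with Agrimol B and 870 FPKM in control) and TMSB10 (883 and 1284 FPKM).

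The balance between related genes was examined in 12 pairs, as the share of the first gene in the summed FPKM of both. In 4 pairs the groups did not overlap. WASF1 made up 40.5, 36.8 and 36.4% of WASF1 and WASF2 with Agrimol B, against 45.6, 45.7 and 46.4% in control, the widest gap of the 12. ARPC1A made up 69.9 ± 0.543% of ARPC1A and ARPC1B with Agrimol B and 67.1 ± 0.976% in control. PFN1 made up 96.5 ± 0.307% of the profilins with Agrimol B and 95.6 ± 0.190% in control. TMSB4X made up 38.7, 35.8 and 37.6% of both thymosins with Agrimol B, against 41.1, 41.4 and 38.8% in control, so that the groups were barely apart. By the exact permutation test (two-sided) each of these 4 pairs gave p = 0.1, the smallest possible, or 0.3 adjusted over the 12 pairs. The groups overlapped in the other 8 pairs, among them the cofilins CFL1 and CFL2 and the capping subunits CAPZA1 and CAPZA2.

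**Figure D4:**
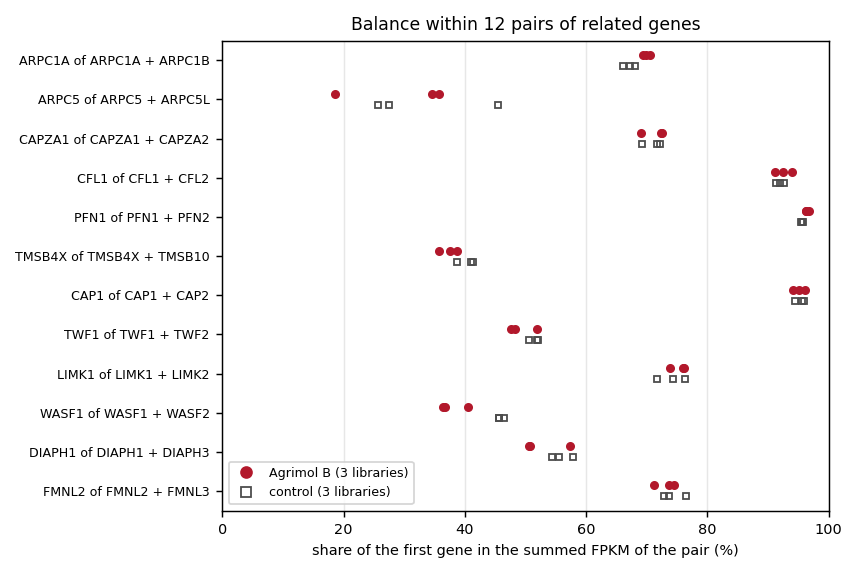
Share of the first gene in the summed FPKM of each of 12 pairs (percent), with 1 point per library, Agrimol B as filled circles above control as open squares. The groups are apart for ARPC1A, PFN1, TMSB4X and WASF1, and the points of ARPC5 run across both groups.

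To place the 42 genes among other actin genes, 69 further genes in 5 lists were read from the same fit. Of the 62 tested, 17 rose and 16 fell (27.4% and 25.8%), near the 30.6% and 21.4% of all tested genes. In a list of WAVE, WASH and WASP family genes and their partners, 9 of 20 were called higher and 1 lower, with a median log2 difference of 0.26. 1 of these 9 had a mean of 0.869 FPKM in control and passed the limit of 1 FPKM only through its Agrimol B values (mean 1.51 FPKM). JMY, which starts filaments alone or through Arp2/3, stood at 10.5, 10.3 and 9.94 FPKM with Agrimol B, against 4.31, 4.33 and 4.61 FPKM in control, a rise of 2.32-fold (limma adjusted p = 4.78e-05). WHAMM, an Arp2/3 activator of Golgi and tubular membranes, rose 1.72-fold to 9.74 ± 0.250 FPKM, against 5.66 ± 0.180 FPKM in control (limma adjusted p = 0.000153). BAIAP2, which encodes the membrane-bending Rac effector IRSp53, fell 1.85-fold to 12.1 ± 2.63 FPKM, against 22.3 ± 4.98 FPKM in control (limma adjusted p = 0.0145).

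Of 9 tested genes in a list of Arp2/3 inhibitors and coronins that also holds the cortactin relative HCLS1, 4 rose and 2 fell. These are 44.4% and 22.2%, against 30.6% higher and 21.4% lower among all tested genes. CORO2B, a coronin, rose 5.76-fold to 4.33 ± 0.118 FPKM, against 0.751 ± 0.0321 FPKM in control (limma adjusted p = 1.68e-05). HCLS1, which is known from blood cells, and PICK1, which binds Arp2/3, rose 1.72-fold and 1.80-fold, to 2.67 ± 0.312 FPKM, against 1.55 ± 0.0972 FPKM in control, and to 1.66 ± 0.136 FPKM, against 0.921 ± 0.0887 FPKM in control (limma adjusted p = 0.0029 and 0.0025). The log2 difference of PICK1 was 0.47, and 0.79 with a pseudocount of 0.1. CORO2B and PICK1, both among the 4 that rose, had control means under 1 FPKM and passed the limit for testing only through their Agrimol B values. The share of this list called higher rests in part on that limit, so no weight is placed on it. Of 12 other formins, spires and ENA/VASP proteins, 2 rose and 4 fell (16.7% and 33.3%). SPIRE1, which nucleates filaments together with formins, rose 1.97-fold to 28.6 ± 0.825 FPKM, against 14.5 ± 0.626 FPKM in control (limma adjusted p = 6.29e-05). FHDC1, an inverted formin, fell 1.91-fold to 1.42 ± 0.159 FPKM, against 2.70 ± 0.186 FPKM in control (limma adjusted p = 0.00109). VASP, which extends filaments at adhesions and the cell edge, fell 1.50-fold to 23.1 ± 2.48 FPKM, against 34.6 ± 2.33 FPKM in control (limma adjusted p = 0.00311).

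Of 17 tested further genes of capping, severing and the cofilin pathway, 2 rose and 7 fell. These are 11.8% and 41.2%, against 30.6% and 21.4% of all tested genes. TMSB15A, another beta-thymosin, fell 2.28-fold to 7.27 ± 0.832 FPKM, against 16.6 ± 1.08 FPKM in control (limma adjusted p = 0.000227), with the reservation that it has the close relative TMSB15B. EPS8L2, a relative of EPS8, fell 2.99-fold to 2.96 ± 0.414 FPKM, against 8.87 ± 0.940 FPKM in control (limma adjusted p = 0.000223), and the adducin ADD3 fell 1.83-fold to 8.43 ± 1.15 FPKM, against 15.5 ± 1.34 FPKM in control (limma adjusted p = 0.00161). EPS8L2 overlaps TMEM80 on its strand.

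Of 4 genes of SRF and its actin-regulated cofactors, 2 fell and 0 rose, against 21.4% lower and 30.6% higher among all tested genes. SRF, the transcription factor that drives many actin genes when monomeric actin runs low, fell 1.45-fold to 23.5 ± 0.619 FPKM, against 34.0 ± 0.397 FPKM in control (limma adjusted p = 0.000197). Its cofactor MRTFA, which binds actin monomers, fell 1.18-fold to 9.50 ± 0.292 FPKM, against 11.2 ± 0.929 FPKM in control (limma adjusted p = 0.0367), a call lost with the replicate number as a block (0.0558) and when any library other than the third control library was left out (0.0587 to 0.0976). The other 2 genes of the list were not called.

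**Figure D5:**
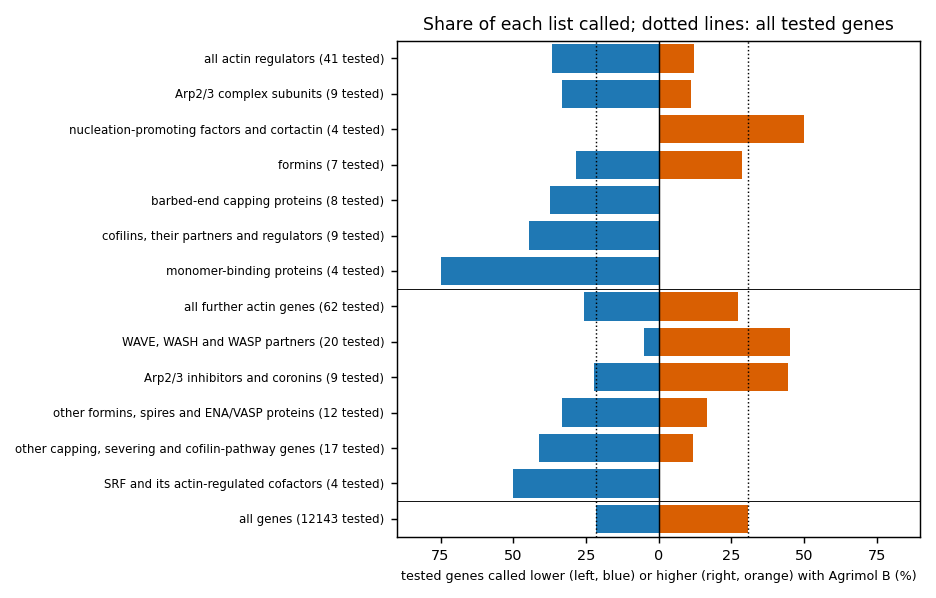
Share of the tested genes called lower (left) or higher (right) with Agrimol B in each role group of the 42 regulators, in each of the 5 lists of further actin genes and over all tested genes, with dotted lines at 21.4% and 30.6%, the shares of all tested genes. HCLS1 is counted with the Arp2/3 inhibitors and coronins. The monomer-binding, cofilin and capping groups and the SRF list hold only lower calls, and the activators only higher ones, in lists of 4 to 9 genes.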

How the data were processed

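Libraries (3 Agrimol B, 3 control) were built from trizol RNA with the KAPA kit for stranded mRNA, per the labels' protocols. The authors deposited FPKM values for each library. HISAT, Trimmomatic, cutadapt and FastQC, and the build hg38, are named in the submitters' processing notes without versions or roles. The program and annotation behind the FPKM values, its use of strand and its handling of multiply matching reads were not found in the sources used here. The letters heading the control columns are those of the sample descriptions with their order swapped, and columns were matched to samples by these letters and the number. FPKM hides read numbers, so no counting error could be given.

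Genes whose mean reached 1 FPKM were tested on log2(FPKM + 1), which understates changes of low genes. The test was limma 3.58.1 in R 4.3.3 (group term, empirical Bayes with trend, two-sided, Benjamini-Hochberg over all 12143 genes, threshold 0.05). The code was tested on simulated data. Folds are ratios of group means of FPKM. Python 3.11.15, pandas 2.3.3, numpy 2.4.6, scipy 1.17.1, Biopython 1.88 and matplotlib 3.10.9 did the rest. Coordinates are from GENCODE release 29 (GRCh38, the assembly hg38 names). The 42 genes and the lists were chosen with earlier results of these data known. All 42 are named, and of each further list at most 3 called genes with the largest log2 difference and no overlap between groups. Named in addition, after the values were seen, are TESK1, TESK2, PDXP, SSH2 and SSH3, for their part in the cofilin pathway. Alternatives were a pseudocount of 0.1, no filter, a filter of 5 FPKM, median-ratio scaling, quantile normalization, the replicate number as a block, and leaving out each library. One list of further actin genes is not reported here.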

Additional observations from a re-analysis of the deposited data

How the results depend on the processing

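Of the 20 calls among the 42 genes, 17 held under all 12 alternatives, 3 (FMNL3, CAPZA1 and EPS8) were lost under some, and 0 changed direction. Of the 21 tested genes not called, 8 gained a call under some alternative. The count of lower calls ran from 13 to 18 and that of higher calls from 4 to 6. The median log2 difference of -0.15 became -0.21 with median-ratio scaling, which moved the median of all tested genes to 0.01. With that scaling 4 of the 42 genes were higher and 18 lower, and of all tested genes 25.4% were higher and 26.0% lower. Of the further actin genes, 17 were higher, and 11 with a filter of 5 FPKM, which tests fewer genes. Among uncalled genes the sign turned as follows. DIAPH3 came to -0.054 with median-ratio scaling and -0.053 with quantile normalization, PFN1 to -0.038 with median-ratio scaling, and DAAM1 to -0.011 with quantile normalization. With each library left out in turn the log2 difference ran from -0.37 to 0.31 for ARPC5, from -0.072 to 0.012 for WASF1, from -0.027 to 0.049 for DIAPH3 and from -0.047 to 0.013 for LIMK1. The causes were not tested.

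Libraries with the same number did not deviate together (correlations of 0.037, -0.0058 and -0.015 for numbers 1, 2 and 3), so the numbers were not taken to pair them. With the replicate block 15 of the 42 genes were lower and 5 higher, as without it, with CAPZA1 lost and CAP2 gained. Values for replicates of a group rest on an unknown number of reads, and genes below 1 FPKM such as DIAPH2 could not be judged.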
